A study of Mus musculus with 9 samples.

Results

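This account compares regulatory T cells (Tregs) labelled ST2KO with wild-type ST2-high Tregs, 3 RNA sequencing libraries against 3, out of 9 libraries in the series. Tregs are CD4 T cells that carry the factor Foxp3 and hold immune responses in check, and ST2, encoded by Il1rl1, is their receptor for the alarm cytokine interleukin-33. All 6 libraries were made from total RNA of mouse spleen Tregs. The other 3 libraries, wild-type ST2-low Tregs, shared the fit and are set beside the comparison where their level helps to read a value. The members of the comparison were chosen by label alone: genotype ST2KO against genotype WT-ST2 High. The series title concerns ST2-positive Tregs in inflamed and fibrotic kidney after ischemia, but the labels give no strain, age, treatment or injury for these spleen cells. They give no sorting gate either, and do not say whether ST2KO cells were selected on any marker other than being Tregs. The wild-type cells were selected for high ST2, so the effect of the genotype and the effect of that selection cannot be told apart here.

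Interleukin-33 is released by damaged tissue and binds ST2, which pairs with the accessory chain Il1rap. The pair recruits the adaptor Myd88 and the IRAK kinases, which act through Traf6 and the kinase Map3k7 (TAK1) on NF-kB and on the p38 and JNK kinases. In Tregs the receptor is known from effector and tissue-resident cells, which make amphiregulin, the epidermal growth factor family member encoded by Areg, and interleukin-10. ST2 is found on a minority of Tregs in the spleen of an untreated mouse.

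The files gave 23393 usable gene rows per library, of which 12219 passed a filter on low counts and were tested. Total counts lay between 11659659 and 43406680 in ST2KO and between 16223242 and 29320699 in ST2-high. Levels below are CPM, the counts of a gene relative to the library's size after TMM scaling, folds are those of the edgeR fit, and a gene is called when its Benjamini-Hochberg adjusted p in edgeR's quasi-likelihood test is under 0.05. The labels do not say that replicates came from separate animals, so p-values measure only how these samples vary, and that variation may be technical. ST2-high replicate 3 stood apart from its group (chi-square per gene 16.5 and 19.9 against the other 2 libraries, where every other pair of replicates gave 8.22 or less). Calls of single genes described below that change without it are given beside the result. So are the counts of the respiratory chain and ribosomal protein lists. Counts of other lists also shifted without it, and most of these shifts are not given. Interferon-induced genes, for example, went from 32 higher and 8 lower to 31 and 11. The T cell genes Cd4 and Cd3e were at 423 ± 17.4 and 352 ± 12.3 CPM in ST2KO (mean ± SD, n = 3, as for all means below) and at 441 ± 9.59 and 351 ± 16.9 CPM in ST2-high, without a call. Y-linked genes had counts in every library and Xist had at most 5 counts.

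The difference was broad. Of the 12219 genes tested, 7876 were called (64.5%), 3892 higher in ST2KO (31.9%) and 3984 lower (32.6%). Many of these differences were small, and 3953 of the 7876 called genes differed by less than 1.5-fold. Changes of 2-fold or more were called for 835 higher genes (6.83%) and 1082 lower genes (8.86%), and 4-fold or more for 140 and 266. The 3 libraries of one group lay entirely above or below the other 3 for 8163 genes (66.8%). Every count of called list members below is to be read against these shares, and every list median against the median log2 fold change of all tested genes, 0.02. The first principal component of the 6 libraries held 77.4% of the variance and separated the groups. Weakly transcribed genes were called higher more often than lower (36.5% against 21.4% of 2627 genes at 2 to 10 CPM, 22.8% against 18.3% of 1811 genes under 2 CPM), and abundant genes the reverse (23.3% against 53.1% of 971 genes over 200 CPM). Among those over 200 CPM, 113 were called at least 2-fold lower and 5 at least 2-fold higher, against 298 lower and 341 higher among those under 2 CPM. At the centre of the distribution, the Mediator subunit gene Med12 was at 301 ± 4.69 CPM in ST2KO and 300.5 ± 22.4 CPM in ST2-high.

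**Figure D1:**
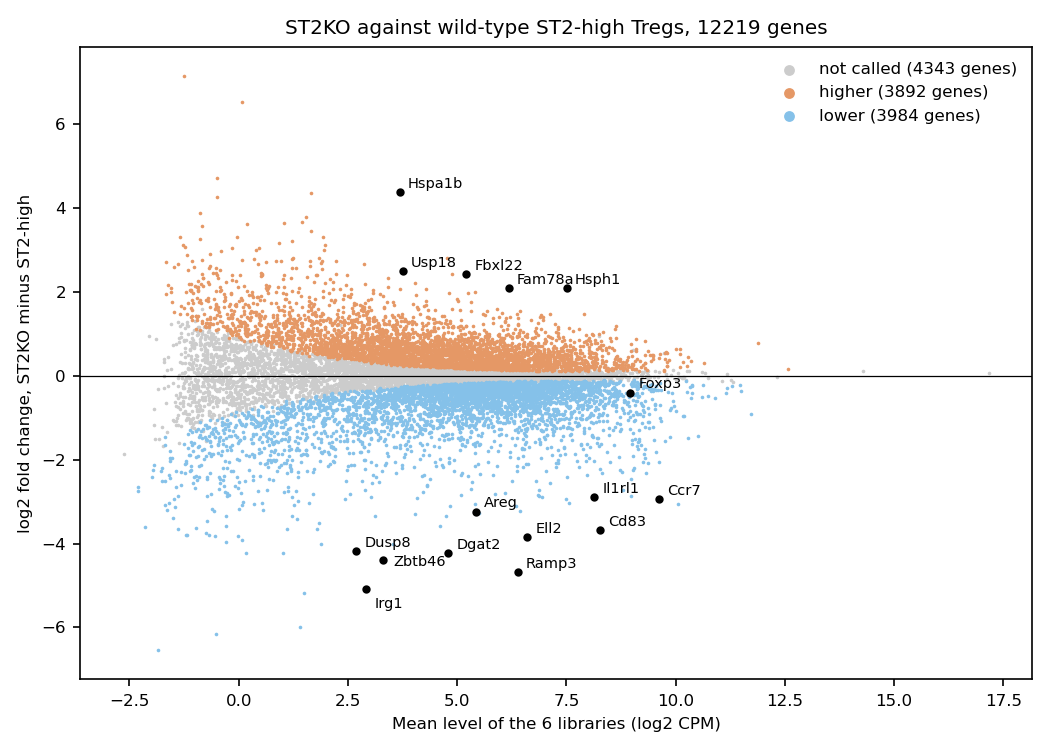
Each point is 1 of 12219 tested genes; the x axis is the mean level of the 6 libraries (log2 CPM) and the y axis the log2 fold change, ST2KO minus ST2-high. Orange points were called higher (3892), blue points lower (3984) and grey points were not called (4343); black points are labelled genes, with Cd83, Ramp3, Ell2, Ccr7 and Il1rl1 below 0 and Hsph1 and Fam78a above.

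Il1rl1 itself, the gene on which the groups were defined, stood at 57.7, 61.3 and 83.6 CPM in the ST2KO libraries, against 516, 421 and 547 CPM in ST2-high and 2.62 ± 0.837 CPM in ST2-low. The ST2KO libraries thus lay below every ST2-high library and above every ST2-low library (2658, 1050 and 1022 Il1rl1 counts). The fall was 7.44-fold (log2 fold change -2.90 ± 0.18 SE, edgeR adjusted p = 7.83e-06). With 1 count per gene, the exons behind these reads are unknown, so the value is no check of the knockout label. The lineage factor gene Foxp3 was at 437, 409.98 and 443 CPM in ST2KO and 549.5, 531 and 622 CPM in ST2-high. All 3 ST2KO libraries were lower, by 1.32-fold (edgeR adjusted p = 3.56e-07). A lower level in sorted cells can come from fewer cells of a kind or from less RNA per cell, and bulk libraries cannot tell these apart.

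Il1rl1 lies on chromosome 1 among other interleukin-1 receptor family genes, and a targeted allele can carry flanking sequence with it, so the 10 nearest tested protein-coding genes on each side were examined. Of these 20 genes 4 were higher, 8 were lower and 8 were not called. Of all tested genes, 31.9% were higher and 32.6% lower, so the neighbours were not called more often than genes at large. The calls of Tbc1d8, Tgfbrap1 and AI597479 were each lost without some single library (edgeR adjusted p between 0.0583, for Tgfbrap1 without ST2KO replicate 3, and 0.305, for AI597479 without ST2-high replicate 1). Without ST2-high replicate 3, the adjusted p was 0.096 for Tbc1d8 and 0.0783 for Tgfbrap1, and Fhl2 was called lower (0.0152). Npas2, a clock transcription factor gene 9 tested genes away, stood at 5.60, 5.26 and 6.63 CPM in ST2KO and 1.36, 0.811 and 0.988 CPM in ST2-high, 5.28-fold higher. Il1r2, which encodes the decoy receptor for interleukin-1, was at 3.32, 5.67 and 6.22 CPM against 20.7, 22.3 and 21.4 CPM (4.59-fold lower, edgeR adjusted p = 1.02e-12). The genes next to Il1rl1 on its other side encode the chains of the interleukin-18 receptor, and these went in opposite directions. Il18r1, the ligand-binding chain, was at 145, 145 and 133 CPM in ST2KO and 94.2, 87.3 and 111 CPM in ST2-high, 1.45-fold higher. Il18rap, the signalling partner chain, was at 17.9, 17.3 and 15.9 CPM against 37.2, 29.6 and 44.02 CPM, 2.15-fold lower. In neither gene did the groups overlap. Both chains were at a lower level in ST2-low (Il18r1 35.5 ± 3.22 CPM, Il18rap 9.29 ± 1.32 CPM) than in either of the groups compared. Il1r1 and Il1rl2, at 0.782 ± 0.480 and 1.56 ± 0.544 CPM in ST2KO, were not called, although Il1rl2 was called higher without ST2KO replicate 1 or ST2-high replicate 2 (edgeR adjusted p = 0.023 and 0.0438).

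**Figure D2:**
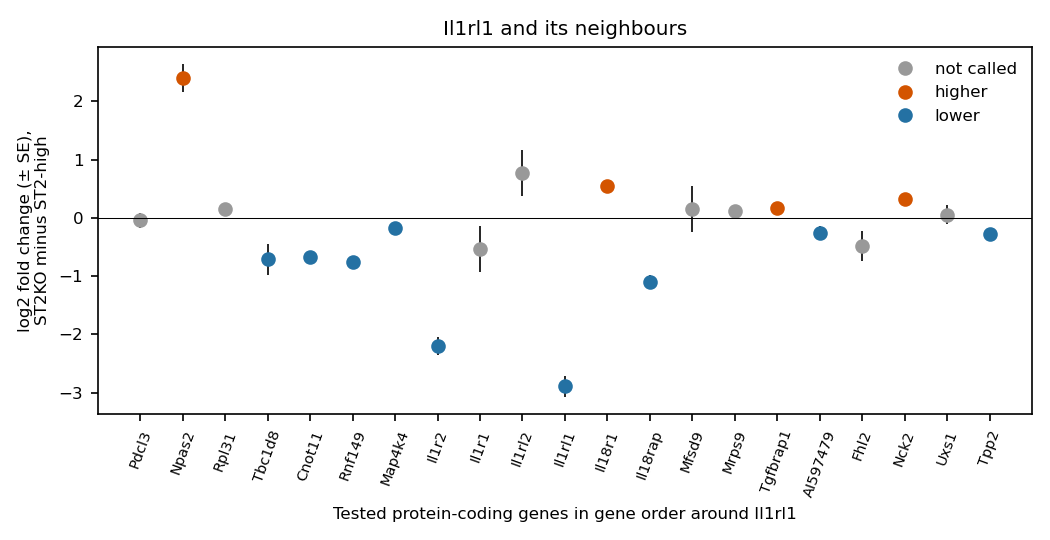
The 10 tested protein-coding genes on each side of Il1rl1 are shown in gene order on the x axis, with the log2 fold change, ST2KO minus ST2-high, on the y axis and bars of 1 SE; orange points were called higher, blue lower, grey not called. Il1rl1 and Il1r2 lie lowest, Npas2 lies highest, and Il18r1 and Il18rap lie on opposite sides of 0.

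The chain from ST2 to NF-kB and the MAP kinases, receptor included, differed mostly by less than 2-fold. Of 28 tested genes 10 were higher and 13 lower (11 and 9 with upper-quartile normalization), with a median of -0.11. These are 35.7% and 46.4% of the list, against 31.9% and 32.6% of all tested genes. Of them 3 were called at 2-fold or more, namely Il1rl1, Map2k3 and Irak1bp1. The accessory chain Il1rap was at 24.02, 22.7 and 23.97 CPM in ST2KO and 26.6, 24.6 and 24.2 CPM in ST2-high and was not called. Sigirr, an inhibitory receptor of the family, was 1.63-fold higher at 65.4, 60.1 and 63.6 CPM against 39.2, 38.3 and 39.1 CPM. Among the kinases next to the receptor, Irak4, which starts the cascade, was 1.52-fold higher (26.1 ± 1.43 against 17.2 ± 0.735 CPM), and Irak2, which sustains it, was 1.76-fold lower (56.04 ± 1.10 against 98.98 ± 9.64 CPM). Tollip, an inhibitory adaptor, was 1.88-fold lower and the TAK1-binding protein genes Tab2 and Tab3 were 1.62-fold and 1.60-fold lower. Map2k3, which activates p38, showed the next largest difference after Il1rl1, at 35.8, 39.2 and 42.3 CPM against 126, 117 and 119 CPM (3.11-fold lower, edgeR adjusted p = 2.26e-19). Its paralogue Map2k6 and the p38 gene Mapk14 were 1.56-fold and 1.34-fold higher. Of the IkB kinase subunits, Ikbkb and Ikbkg were 1.22-fold and 1.30-fold higher. The adaptor Myd88 passed narrowly, at 37.9 ± 3.03 against 42.6 ± 1.69 CPM. Its call was lost without ST2KO replicate 1 or 2 or ST2-high replicate 1 or 2 (edgeR adjusted p = 0.185, 0.09, 0.0564 and 0.0706). In all, 7 of the 23 calls in this chain were lost when some single library was left out. One of these was Irak1bp1, which binds IRAK1, at 0.217, 0.993 and 0.573 CPM against 0.906, 1.04 and 1.52 CPM (edgeR adjusted p = 0.399 without ST2KO replicate 1). Without ST2-high replicate 3, Irak1bp1 and the adaptor gene Ecsit were not called (edgeR adjusted p = 0.116 and 0.0703), and the kinase gene Map3k8 was (0.0399).

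Genes of the NF-kB system were mostly lower. Of 30 NF-kB subunit, inhibitor and response genes 22 were lower and 4 higher, with a median of -1.04, and 16 were at least 2-fold lower. Markers of B cells and of macrophages and dendritic cells, which use the same genes, were also lower in ST2KO (12 of 20 and 27 of 29), with the summed levels given below. Rel, the subunit c-Rel that Tregs need for their development, was at 141, 152 and 152 CPM in ST2KO and 739.7, 689 and 741 CPM in ST2-high. The groups were far apart, with a fall of 4.87-fold (log2 fold change -2.28 ± 0.06 SE, edgeR adjusted p = 1.46e-24). Nfkb2, the p100 precursor of the non-canonical pathway, was 2.77-fold lower (156 ± 5.66 against 432 ± 1.91 CPM), and Nfkbie, which encodes an inhibitor that NF-kB itself induces, was 3.42-fold lower (71.7 ± 2.37 against 245 ± 9.91 CPM). Cd83, a surface molecule of activated lymphocytes and dendritic cells, had the largest fall of the list. It was at 41.4, 46.3 and 47.9 CPM against 580.2, 558 and 579 CPM, 12.8-fold lower (edgeR adjusted p = 1.41e-28). Birc3, an NF-kB-induced inhibitor of apoptosis, was 2.68-fold lower and the adhesion molecule gene Icam1 2.41-fold lower. Wild-type ST2-low cells lay between the groups for Rel (499 ± 23.1 CPM) and Cd83 (272 ± 13.1 CPM), while Icam1 in ST2-low (57.6 ± 5.34 CPM) was at the level of ST2KO (55.2 ± 1.12 CPM, not called).

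Genes induced by T cell receptor engagement were mostly lower too. Of 30 tested immediate early and T cell receptor-induced genes 20 were lower and 6 higher, with a median of -0.67. The orphan nuclear receptor gene Nr4a3 stood at 79.5, 77.7 and 89.9 CPM in ST2KO and 413, 420.2 and 435 CPM in ST2-high, and its relative Nr4a1 at 339, 318 and 331 and 1086, 1169 and 1243 CPM, so that both groups of 3 were well separated (5.15-fold and 3.54-fold lower). Fosl2, an AP-1 subunit, was at 110.1, 119.9 and 136 CPM against 852, 868 and 919.6 CPM, 7.25-fold lower. Its AP-1 partner Jun was opposite, at 337, 313 and 328 CPM against 160.2, 172 and 167 CPM, 1.96-fold higher (edgeR adjusted p = 1.3e-16). ST2-low cells had 899 ± 27.4 CPM of Fosl2, 463 ± 15.7 CPM of Nr4a3 and 1091 ± 78.3 CPM of Nr4a1, close to ST2-high.

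MAP kinase activity induces its own inhibitors, and of 17 such feedback genes 9 were lower and 3 higher (median -0.62; 6 were higher with upper-quartile normalization). The phosphatase genes Dusp4, Dusp10 and Dusp16 were at 184 ± 24.9, 278 ± 18.1 and 11.2 ± 1.64 CPM in ST2KO and at 863 ± 16.04, 796 ± 39.4 and 56.9 ± 0.523 CPM in ST2-high. Dusp8, a phosphatase of the same family that is not on this list but among the largest falls, was at 0.716, 0.643 and 0.573 CPM against 11.4, 11.9 and 13.6 CPM, 18.1-fold lower. Errfi1, which inhibits the epidermal growth factor receptor, was 3.58-fold lower.

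Other induced genes respond to cyclic AMP, the messenger made after stimulation of many G protein-coupled receptors. Of 32 genes of the cyclic AMP pathway and its targets 19 were lower and 5 higher, with a median of -0.27, and 8 were at least 2-fold lower. Ramp3, a receptor subunit that lets the calcitonin receptor-like receptor bind adrenomedullin, was among the largest falls. It stood at 6.10, 6.25 and 6.79 CPM in ST2KO and at 153, 155 and 173 CPM in ST2-high, 25.5-fold lower (log2 fold change -4.67 ± 0.08 SE, edgeR adjusted p = 9.83e-29), with 128 ± 3.64 CPM in ST2-low. Crem, a cyclic AMP-responsive transcription factor, was at 36.2, 42.1 and 48.02 CPM against 332, 344 and 334 CPM, 8.14-fold lower and with no library of one group near the other. Pde4d, a phosphodiesterase that breaks down cyclic AMP, and Rgs2, which damps G protein signalling, were 3.21-fold and 3.34-fold lower.

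Of the 15 largest falls, 9 matched promoter windows by exact symbol in the RefSeq table of GRCm38.p6, 10 windows in all. Of the 10, 3 hold the palindromic cyclic AMP response element TGACGTCA in the 250 bases before the start. On either strand, 508 of 32851 promoter windows of that length hold it (1.55%). It is in 0 of the 15 windows found for 10 of the 15 largest rises. The genes without a matched window are not counted here, and no check of the motif over whole sets of genes was made. Synonyms were not tried, so a missing match need not mean that the table lacks the gene. Windows of 1 chromosome were left out of the search and of the 32851. The 3 windows are shown because they belong to 3 of the largest falls, with the element in capitals. They are from RefSeq, build GRCm38.p6, written in the direction of the gene: Areg at chr5:91139349-91139598 on the plus strand, Ell2 at chr13:75707234-75707483 on the plus strand and Dusp8 at chr7:142095285-142095534 on the minus strand.
Areg: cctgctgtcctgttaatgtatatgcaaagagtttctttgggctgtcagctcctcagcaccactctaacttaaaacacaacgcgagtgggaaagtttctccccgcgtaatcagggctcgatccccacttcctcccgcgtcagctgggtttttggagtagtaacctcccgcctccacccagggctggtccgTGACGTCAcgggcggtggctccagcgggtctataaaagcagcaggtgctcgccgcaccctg
Ell2: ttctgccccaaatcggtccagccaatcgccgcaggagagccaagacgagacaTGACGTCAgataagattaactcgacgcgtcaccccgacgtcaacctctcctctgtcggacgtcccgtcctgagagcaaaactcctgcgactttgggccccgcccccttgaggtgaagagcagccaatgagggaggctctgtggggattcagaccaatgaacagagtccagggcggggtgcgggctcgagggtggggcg
Dusp8: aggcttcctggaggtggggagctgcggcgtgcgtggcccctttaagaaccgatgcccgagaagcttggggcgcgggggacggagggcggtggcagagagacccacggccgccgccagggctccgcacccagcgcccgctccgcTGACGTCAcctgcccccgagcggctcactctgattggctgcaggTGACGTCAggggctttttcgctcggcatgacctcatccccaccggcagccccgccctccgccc
The element starts 61 bases before the start in Areg, 198 bases before it in Ell2, and 107 and 63 bases before it in Dusp8. The AP-1 letters TGANTCA were found in 1 of the 10 windows of the falls, that of Zbtb46, and in 0 of the 15 of the rises (6.75% of all windows). A loose NF-kB motif was in 6 of the 10 windows of the falls and 11 of the 15 of the rises (45.8% of all windows). The interferon-stimulated element was in 0 and 1 windows (2.98%). The heat shock element was searched only as a single strict pattern of letters, which 0.466% of all windows hold. No window of either set held a full match to it, those of Hspa1b and Hsph1 included. Shorter or imperfect forms were not searched for, so this result does not show that these promoters lack heat shock elements. Both strands were searched. A match of letters is a description and not a measured binding site.

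The 3 genes with these windows and the others with the largest falls have varied roles. Areg, the growth factor known from tissue-repairing Tregs, was at 8.203, 7.30 and 9.49 CPM in ST2KO and 80.4, 71.1 and 81.6 CPM in ST2-high, 9.43-fold lower (log2 fold change -3.24 ± 0.09 SE, edgeR adjusted p = 3.41e-23). Its ST2-low level, 27.3 ± 2.01 CPM, lay above that of ST2KO (log2 fold change of ST2KO minus ST2-low -1.73). Ell2, an elongation factor of RNA polymerase II, was at 11.8, 14.3 and 12.7 CPM against 210.1, 168 and 169 CPM, 14.4-fold lower. Dgat2, which completes triglyceride synthesis, was at 2.58, 3.45 and 2.70 CPM against 57.3, 45.03 and 56.01 CPM, and Trf, the iron carrier transferrin, at 4.82, 4.38 and 5.15 against 48.001, 43.1 and 55.02 CPM. In both, all ST2KO libraries lay below 6 CPM and all ST2-high libraries above 40 CPM. Gprc5a, an orphan receptor, fell 16.1-fold, the homeobox factor gene Prox1 10.2-fold and the cytoskeletal linker gene Gas2l3 11.9-fold. Bpnt1, a nucleotide and inositol phosphatase, and Adck3, needed for coenzyme Q, fell 9.61-fold and 9.33-fold. Ky, a muscle-associated gene, was at 2.08, 4.67 and 3.11 CPM against 30.95, 20.1 and 38.1 CPM, and its ST2-low level (3.44 ± 0.614 CPM) was that of ST2KO.

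Irg1, the itaconate-producing enzyme of activated macrophages, and Zbtb46, a transcription factor of classical dendritic cells, are also among these falls. Levels of marker genes of other cells are therefore set beside them. Irg1 stood at 0.239, 0.409 and 1.06 CPM in ST2KO and 17.01, 12.9 and 13.97 CPM in ST2-high, 33.9-fold lower (edgeR adjusted p = 1.38e-10), and Zbtb46 at 1.04, 0.876 and 0.573 and 21.4, 17.3 and 18.5 CPM, 20.9-fold lower. Of 29 tested macrophage, monocyte and dendritic cell markers, a list that contains Zbtb46, 27 were lower and 0 higher. They summed to between 150.4 and 173.2 CPM in ST2KO and between 338.7 and 354.7 CPM in ST2-high. In ST2-low the same markers summed to between 371.1 and 432.0 CPM, above ST2-high, whereas Irg1 and Zbtb46 were at 4.28 ± 1.55 and 3.77 ± 0.748 CPM there, below ST2-high.

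**Figure D3:**
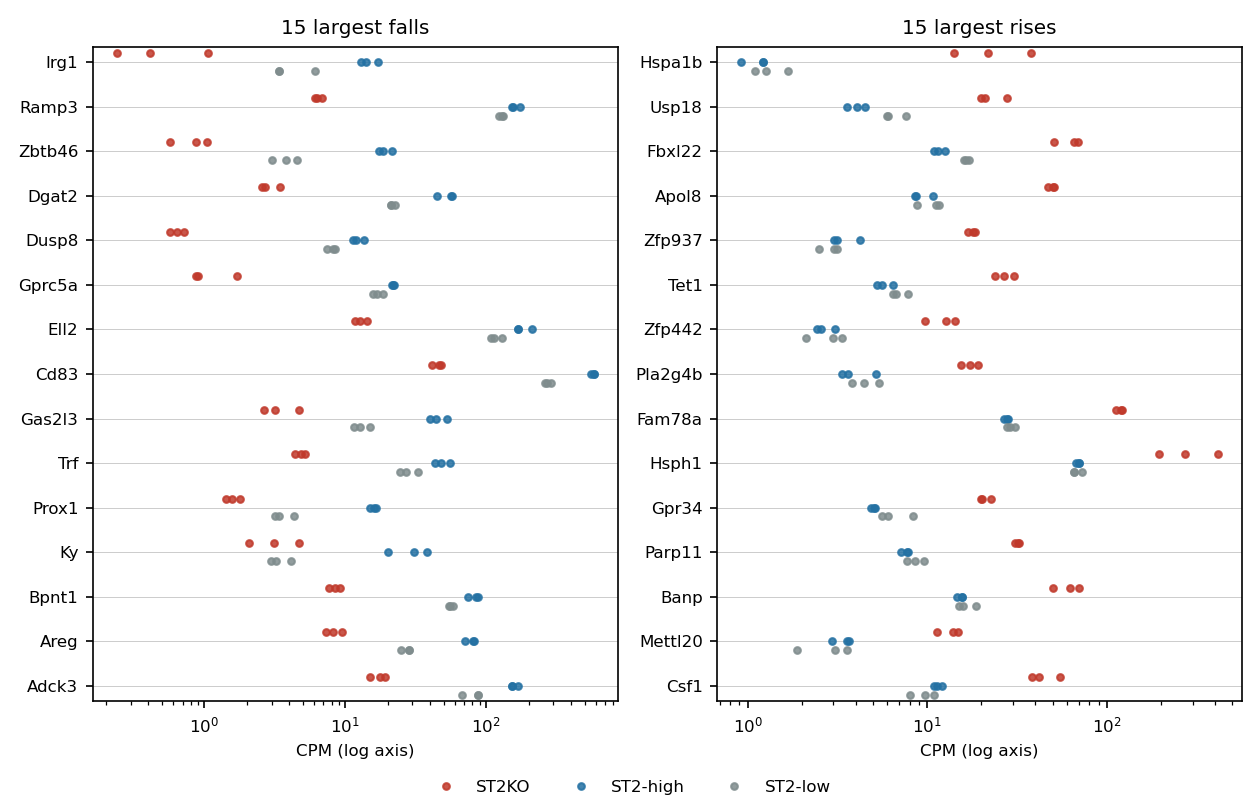
The 15 largest falls (left) and 15 largest rises (right) among called genes without overlap between groups. The group with more had 10 CPM or more on average. Predicted gene models, clone-named genes, pseudogenes, receptor segments, small RNA genes and Rn45s were left out of the ranking. Each point is 1 library, with CPM on a log x axis and genes on the y axis. Red points (ST2KO) lie to the left of blue points (ST2-high) in every row of the left panel and to the right in every row of the right panel; grey points are ST2-low, which lie near ST2-high for most of the rises.

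Among the 15 rises, the largest was in Hspa1b, an inducible heat shock protein of the HSP70 family, at 21.7, 14.1 and 37.9 CPM in ST2KO and 1.22, 1.22 and 0.922 CPM in ST2-high (21.02-fold, edgeR adjusted p = 3.75e-05). Its near-identical copy Hspa1a was 10.98-fold higher, and how reads of the 2 copies were shared out is not given, so the values of each are uncertain. Hsph1, a large co-chaperone of HSP70, was at 273, 196 and 417 CPM against 69.7, 69.9 and 67.5 CPM. In these 3 genes the ST2KO libraries were spread widely, with replicate 3 highest and replicate 2 lowest in each, but all lay above every ST2-high library. Over the 35 tested heat shock and chaperone genes, 13 were higher, 9 lower and 13 not called (median 0.13). Without ST2KO replicate 2, 20 were higher and 9 lower. Dnajb6 and Hspa2 were 2.19-fold and 3.92-fold lower.

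Other large rises included Usp18, which shuts off type I interferon receptor signalling, at 27.9, 20.9 and 20.04 CPM against 4.50, 3.59 and 4.09 CPM (5.67-fold, edgeR adjusted p = 4.21e-15). Tet1, which oxidises methylated cytosine, was at 26.7, 30.3 and 23.9 CPM against 5.61, 6.49 and 5.27 CPM (4.67-fold), and Csf1, the macrophage growth factor, at 41.99, 38.3 and 55.2 against 11.3, 10.9 and 12.1 CPM (3.92-fold). For each of these genes, all ST2KO libraries lay above all wild-type libraries. Fbxl22, Apol8, Pla2g4b, Fam78a, the orphan receptor gene Gpr34, Parp11, Banp and Mettl20 were between 3.93-fold and 5.38-fold higher. Fam78a varied little between replicates, at 121, 119.8 and 112 CPM in ST2KO, 27.96, 28.1 and 26.8 CPM in ST2-high and 29.1 ± 1.54 CPM in ST2-low. Zfp937 and Zfp442, a pair of zinc finger genes, were 5.02-fold and 4.58-fold higher.

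Zinc finger genes, most of which encode DNA-binding repressors, leaned upward. Of 283 tested genes named Zfp and a number, 147 were higher and 59 lower, with a median of 0.31. At 2-fold or more 59 were higher and 9 lower. Zfp831 was at 419.5, 467 and 421 CPM against 202, 205 and 229 CPM and Zfp217, a corepressor subunit, at 124, 129 and 133 against 66.6, 63.2 and 62.3 CPM, both higher and without overlap (2.06-fold and 1.999-fold). Zfp53 was opposite, at 65.3 ± 2.53 against 148 ± 11.3 CPM. Many members share sequence with close relatives, and how the authors counted such reads is not given. Genes called at least 2-fold higher were weakly transcribed as a class, with a median level of 1.75 CPM in the ST2-high and 4.97 CPM in the ST2KO libraries. Those called at least 2-fold lower had medians of 12.7 and 4.51 CPM. The first class had a median of 6 exons and the second of 7, against 9 for all tested genes, in GENCODE transcripts (83.8% and 93.7% of the classes matched). The letters ATTTA, the core of AU-rich elements that shorten the life of many induced messages, occurred at a median of 1.58 per kilobase of 3′ untranslated region in the lower class, 1.17 in the higher class and 1.35 in all tested genes.

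Among Treg identity genes, Stat5a and the costimulatory receptor genes Tnfrsf9, Tnfrsf4 and Icos had the largest falls. Of 28 tested genes 18 were lower, 8 higher and 2 not called, with a median of -0.40, and 9 were at least 2-fold lower. Without ST2-high replicate 2, 5 were higher and 18 lower. Stat5a, which carries the interleukin-2 signal to Foxp3, was at 138, 137 and 147 CPM in ST2KO and 576, 564 and 597 CPM in ST2-high (4.13-fold lower, edgeR adjusted p = 3.76e-24), and Stat5b was 2.46-fold lower (328 ± 19.1 against 809 ± 64.2 CPM). In ST2-low they were at 665 ± 9.72 and 851 ± 21.1 CPM, near or above ST2-high. The costimulatory receptor genes Icos, Tnfrsf4 (OX40), Tnfrsf9 (4-1BB) and Tnfrsf18 (GITR) were 3.74-fold, 3.89-fold, 4.10-fold and 2.15-fold lower. Ctla4, the inhibitory receptor through which Tregs strip CD80 and CD86 from antigen-presenting cells, was at 739, 804 and 815 CPM against 2039, 2159 and 2166 CPM, 2.70-fold lower. Lrrc32 (GARP), which holds latent TGF-beta at the surface, was at 366, 364 and 399.6 CPM against 1020.5, 1058 and 1183 CPM, 2.89-fold lower.

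Other Treg genes moved less. The interleukin-2 receptor chain Il2rb was 1.33-fold lower and the Ikaros factors Ikzf2 (Helios) and Ikzf4 (Eos) 1.16-fold and 1.78-fold lower. Nrp1, a receptor of thymus-derived Tregs, was 1.17-fold higher (335 ± 10.5 against 286 ± 3.70 CPM). Il2ra (CD25) was at 532, 496 and 459.5 CPM against 466, 429 and 451 CPM, with overlapping groups and a call as higher. That call was lost without ST2KO replicate 1 or 2 (edgeR adjusted p = 0.215 and 0.0544), without ST2-low replicate 2 (0.0819) or without ST2-high replicate 1, 2 or 3 (0.0556, 0.1 and 0.0617). Gpr83, an orphan receptor of Tregs, was at 79.5, 77.01 and 71.9 CPM against 22.6, 30.3 and 26.2 CPM (2.93-fold), Folr4, a folate receptor family gene of Tregs, was 1.40-fold higher, and Bach2, which restrains effector differentiation, was at 279, 275 and 247 CPM against 185, 177 and 191 CPM (1.45-fold higher).

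**Figure D4:**
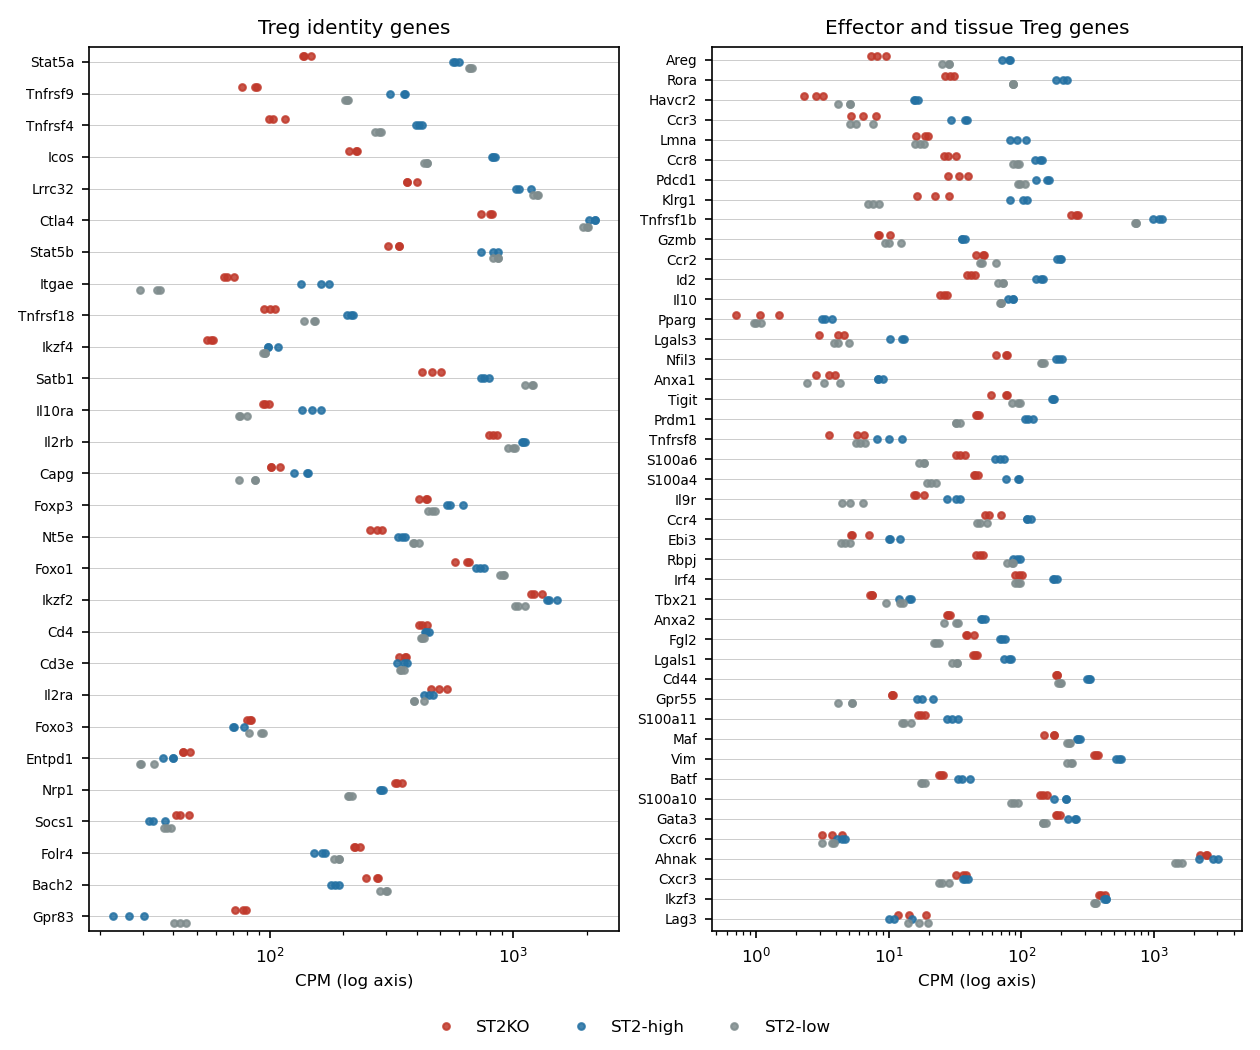
CPM of each library (points, log x axis) for the 28 tested Treg identity genes (left) and the tested effector and tissue Treg genes other than 1 not reported (right), ordered from the largest fall at the top; red is ST2KO, blue ST2-high and grey ST2-low. Of the 45 tested effector genes 40 were called lower in ST2KO and 0 higher; grey points lie beside red ones for some genes, such as Ccr3 and Lmna, and nearer blue ones for others, such as Il10.

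Effector and tissue Treg genes had the highest share of lower calls of the T cell lists. Of 45 tested genes 40 were lower, 0 higher and 5 not called, with a median of -0.98. No call of this list was lost without a single library. Rora, a nuclear receptor of tissue Tregs, was at 26.7, 28.8 and 30.8 CPM in ST2KO and 205, 183 and 221 CPM in ST2-high, 7.15-fold lower (edgeR adjusted p = 1.91e-24). Klrg1, an inhibitory receptor of terminally differentiated lymphocytes, was at 22.3, 16.3 and 28.5 CPM against 109, 82.5 and 103 CPM, 4.45-fold lower, and Pparg, the master regulator of fat tissue Tregs, was low throughout, at 1.08 ± 0.386 against 3.40 ± 0.322 CPM. The transcription factor genes Prdm1 (Blimp-1), Irf4, Batf, Maf and Gata3 were 2.44-fold, 1.88-fold, 1.48-fold, 1.62-fold and 1.31-fold lower. Among the checkpoint receptors, Pdcd1 (PD-1), Havcr2 (TIM-3) and Tigit were 4.49-fold, 5.78-fold and 2.46-fold lower. Lag3 was at 11.8, 18.99 and 14.1 CPM against 10.9, 14.95 and 10.02 CPM and not called. It was called higher without ST2KO replicate 1 or ST2-high replicate 2 (edgeR adjusted p = 0.0239 and 0.0315). Ahnak, Cxcr3, Cxcr6 and Ikzf3 were not called. Ahnak was called lower without ST2-high replicate 2, its lowest ST2-high library (edgeR adjusted p = 0.000141).

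The wild-type ST2-low level divided this list. For Ccr3, Lmna, Pparg, Ccr2 and Anxa1, the difference between ST2KO and ST2-low was not called. Lmna, which encodes lamin A, was at 18.1 ± 1.95 CPM in ST2KO, 94.4 ± 13.1 CPM in ST2-high and 17.01 ± 1.39 CPM in ST2-low. For Klrg1, S100a4, S100a6, Il9r and Fgl2, ST2KO lay between the wild-type groups. The calcium-binding protein gene S100a4 was at 45.2 ± 1.76 CPM in ST2KO, 88.4 ± 10.7 CPM in ST2-high and 20.97 ± 1.68 CPM in ST2-low. For Il10, Rora, Ccr8, Areg and Tnfrsf1b, ST2KO lay below both. These comparisons share the ST2KO or the wild-type libraries and are not independent of each other. ST2KO against ST2-low had 62.3% of genes called and ST2-high against ST2-low 26.1%.

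The molecules with which Tregs suppress were mostly lower: of 29 tested genes 19 were lower and 5 higher, with a median of -0.92. Il10 was at 27.4, 24.1 and 26.2 CPM against 86.2, 78.9 and 86.1 CPM, 3.22-fold lower (edgeR adjusted p = 1.63e-19). Itgav, an integrin chain that releases active TGF-beta, was at 139, 152 and 153 CPM against 725, 629 and 739 CPM, 4.72-fold lower. The PD-1 ligand gene Cd274 was 2.91-fold lower and the granzyme gene Gzmb 4.13-fold lower. In the TGF-beta pathway, 13 of 27 genes were lower and 7 higher (median -0.28). Tgfb1 itself was 1.89-fold lower and Furin, the protease that processes its precursor, 2.41-fold lower. The nuclear corepressors Tgif1 and Tgif2 were 3.73-fold and 3.11-fold lower. The adenosine-producing enzyme genes moved little: Nt5e (CD73) was 1.27-fold lower, and Entpd1 (CD39) was 1.15-fold higher, a call that needed ST2-high replicate 2 (edgeR adjusted p = 0.0844 without it).

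Growth and repair factors beside Areg were lower for the most part. Of 20 tested genes 12 were lower and 5 higher, with a median of -0.89; 2 were higher without ST2KO replicate 1 and 3 without ST2-high replicate 1. Penk, the precursor of the enkephalin opioid peptides, was at 15.4, 17.6 and 18.6 CPM against 57.4, 45.2 and 54.8 CPM, 3.12-fold lower. Csf1, described above, is on this list and went the other way.

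Tregs share regulators with the helper cells they restrain. Th2-associated genes were lower in 12 of 15 and higher in 2 (median -0.93). Il4ra was 2.19-fold lower, Nfil3 2.68-fold and Ccr3 5.52-fold. Of 20 Th1-associated genes 10 were lower and 4 higher (median -0.58). Both chains of the interferon-gamma receptor were lower, Ifngr1 at 288 ± 23.2 against 849.6 ± 36.1 CPM and Ifngr2 at 41.7 ± 1.51 against 139 ± 3.71 CPM. Of 12 Th17-associated genes 9 were lower and 2 higher, with Stat3 at 287, 273 and 282 CPM against 838, 791 and 889 CPM (2.99-fold lower). Of 12 follicular genes 6 were lower and 3 higher. Bcl6, the regulator of follicular T cells, was 3.88-fold lower (34.95 ± 4.28 against 133 ± 8.12 CPM), and Cd200 was 2.64-fold higher. Bcl6, Ifngr2 and Ifngr1 were each higher in ST2-low than in ST2KO (213 ± 6.57, 207 ± 16.6 and 859.9 ± 63.8 CPM).

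Naive and central T cell genes leaned upward by their calls, with 13 of 25 higher and 9 lower (median 0.30). Their summed level was lower, between 6810.2 and 7624.7 CPM in ST2KO and between 9050.5 and 9394.7 CPM in ST2-high. Against ST2-low the median of the list was -0.07. The genes called lower included homing receptors. Klf3, a transcription factor of quiescent lymphocytes, was at 152, 163 and 149 CPM against 69.6, 67.7 and 71.7 CPM and Tspan32 at 153, 147 and 145 against 69.4, 70.99 and 71.6 CPM, both more than 2-fold higher. Ccr7, which guides T cells into lymph nodes and the splenic T cell zone, went down instead. It was at 186, 178 and 176 CPM against 1373, 1476 and 1295 CPM, 7.66-fold lower (log2 fold change -2.94 ± 0.06 SE, edgeR adjusted p = 7.93e-27), with 2004 ± 50.7 CPM in ST2-low. S1pr1, which lets T cells leave lymphoid organs, was 1.82-fold lower (386 ± 16.9 against 703 ± 47.9 CPM), and the chromatin organiser gene Satb1 1.64-fold lower.

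Receptors for chemokines and guiding lipids were mostly lower, with a median of -1.22: 16 of 25 were lower, 13 of them by 2-fold or more, and 5 were higher. Ccr8, a receptor of tissue and tumour Tregs, was at 28.1, 25.9 and 31.8 CPM against 138, 126 and 144 CPM (4.79-fold lower). The non-signalling chemerin receptor gene Ccrl2 was 4.17-fold lower. Integrins and adhesion molecules showed no such lean, with 11 of 28 lower and 9 higher, and a median of -0.04 that changed sign with upper-quartile normalization. Itgae (CD103), the integrin chain of epithelial homing, was 2.31-fold lower, Cd44 was 1.74-fold lower, and the adhesion receptor gene Cd226 was 2.74-fold higher at 75.95, 73.97 and 69.8 CPM against 26.6, 28.7 and 24.97 CPM.

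TNF receptor family and costimulatory genes had 14 of 26 lower and 9 higher (median -0.41). Tnfrsf1b, the TNF receptor 2 that expands Tregs, was at 238, 256 and 265 CPM against 1079.8, 986 and 1138 CPM, 4.22-fold lower. Among genes of interleukin-2, STAT and SOCS signalling, 16 of 31 were lower and 11 higher (median -0.41). The kinase gene Jak2 was at 229, 241 and 242 CPM against 1024, 905 and 1014 CPM (4.14-fold lower), and Pim1, a kinase that STAT5 induces, was 2.76-fold lower. Socs1, a feedback inhibitor of cytokine receptors, was 1.26-fold higher.

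The T cell receptor complex and its proximal signalling genes were not lower as a list: 21 of 41 were higher and 13 lower (median 0.12). At 2-fold or more 3 were called, all lower. The calcium channel gene Orai1 was 2.77-fold lower and Bcl10, the link to NF-kB, 2.13-fold lower. Ptpn22, a phosphatase that damps the receptor, was 1.92-fold lower, short of 2-fold.

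Interferon-induced genes leaned upward. Of 49 tested genes 32 were higher and 8 lower, with a median of 0.46. Ifit2, which blocks translation of foreign RNA, was at 68.4, 53.6 and 54.9 CPM in ST2KO and 19.9, 20.9 and 19.8 CPM in ST2-high, 2.95-fold higher (edgeR adjusted p = 8.76e-16). The GTPase gene Ifi47 was at 155, 147 and 139 CPM against 59.7, 62.8 and 53.8 CPM (2.50-fold higher) and Parp14 was 1.87-fold higher (335 ± 9.80 against 179.5 ± 6.43 CPM). ST2-low cells were at the level of ST2-high for Ifit2 (22.4 ± 0.789 CPM) and Ifi47 (56.6 ± 2.60 CPM). Antigen presentation by MHC class I had no clear direction, with 10 of 23 genes higher and 7 lower (median 0.11). Nlrc5, the activator of class I genes, was 1.51-fold higher, while the chaperone gene Calr was 1.58-fold lower. The class I genes H2-T24 and H2-Q4 were 1.78-fold higher and 1.38-fold lower, values that are uncertain because such genes share sequence.

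Cell division genes were lower as a list: all 40 tested mitosis genes were called lower, with a median of -1.15, 27 of them at 2-fold or more. Mki67, the proliferation marker, was at 132, 136 and 142 CPM in ST2KO and 309.6, 302 and 309 CPM in ST2-high (2.25-fold lower, edgeR adjusted p = 1.14e-17). Top2a, which untangles chromosomes, was at 68.3, 68.7 and 65.8 CPM against 184, 197 and 177 CPM (2.75-fold lower) and Kif23, a motor protein of cytokinesis, at 11.7, 9.29 and 10.9 against 43.1, 48.5 and 44.5 CPM (4.20-fold lower). Of 43 DNA replication genes 34 were lower and 0 higher (median -0.62), among them the nucleotide-synthesis gene Rrm2 (2.29-fold) and the helicase subunit gene Mcm6 (1.60-fold). Of 57 replication-dependent histone genes 47 were lower and 1 higher (median -0.97), with Hist1h1e at 48.2 ± 4.48 against 120.1 ± 15.1 CPM; members of this family share sequence, and their single values are uncertain. ST2-low cells had Mki67 at 126 ± 9.96 CPM, Top2a at 76.7 ± 4.57 CPM and Rrm2 at 19.7 ± 2.28 CPM, near the ST2KO levels of 137 ± 5.09, 67.6 ± 1.56 and 19.6 ± 0.839 CPM. In the licensing factor gene Cdt1 and the centromere histone gene Cenpa, by contrast, ST2-low was well above ST2KO. They were at 38.001 ± 1.85 and 29.2 ± 1.57 CPM in ST2KO, 100.01 ± 0.677 and 84.9 ± 4.60 CPM in ST2-high and 99.5 ± 1.41 and 72.2 ± 5.26 CPM in ST2-low. Over the lists, the median log2 fold change of ST2KO minus ST2-low was 0.09 for mitosis, -0.23 for replication and -0.30 for histone genes.

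Genes for making and folding secreted protein were mostly lower. Of 35 unfolded protein response and endoplasmic reticulum folding genes 25 were lower and 4 higher (median -0.40). The stress sensors Ern1 (IRE1) and Eif2ak3 (PERK) were 4.47-fold and 2.68-fold lower. Xbp1, the factor that IRE1 activates, was at 59.5, 60.9 and 62.9 CPM against 182, 168 and 168 CPM (2.83-fold lower) and the chaperone gene Hspa5 (BiP) was 1.61-fold lower. Amino acid response genes had 18 of 34 lower and 4 higher (median -0.23). Both chains of the large neutral amino acid transporter were lower, Slc7a5 at 37.5 ± 1.72 against 90.1 ± 6.99 CPM and Slc3a2 at 112 ± 8.09 against 261 ± 13.6 CPM, as was the arginine transporter gene Slc7a1 (2.67-fold). The synthetase gene Eprs was 3.06-fold lower.

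Glycolysis and hypoxia response genes had 22 of 37 lower and 6 higher (median -0.36); 3 were higher without ST2-high replicate 1. The hypoxia-inducible factor gene Epas1 was at 6.18, 5.55 and 6.05 CPM against 57.7, 46.8 and 49.3 CPM (8.60-fold lower), the lactate exporter gene Slc16a3 at 9.79, 11.9 and 10.6 against 64.9, 68.5 and 74.1 CPM (6.52-fold lower) and the Myc antagonist gene Mxi1 at 29.4, 28.7 and 30.1 against 235, 205 and 213 CPM (7.41-fold lower). The groups were separated by a wide gap in all 3. Egln3, an oxygen-sensing hydroxylase, was 4.38-fold lower. In sterol and fatty acid synthesis 17 of 36 genes were lower and 11 higher (median -0.19), with Insig1, which holds back sterol synthesis, 2.36-fold lower.

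Housekeeping machinery differed by small amounts. Of 37 proteasome genes 25 were lower and 3 higher, none by 2-fold (median -0.26). Of 58 respiratory chain genes 17 were lower, 6 higher and 35 not called (median -0.10). Without ST2KO replicate 3 or ST2-high replicate 1 or 3, 2 of these were higher, and 19, 16 and 22 lower. Ribosomal protein genes, many of which have near-identical copies, depended on single libraries: 30 of 78 were higher and 2 lower (median 0.14), but without ST2-high replicate 3 these counts were 11 and 6, and without ST2-high replicate 2 they were 53 and 1. With upper-quartile normalization 54 were higher and 1 lower. Of 37 ribosome biogenesis genes 19 were lower and 10 higher (12 and 12 with upper-quartile normalization).

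Genes of cell death and survival were mostly lower, with 22 of 37 lower and 9 higher (median -0.29). The death receptor gene Tnfrsf10b was at 16.2, 14.8 and 21.7 CPM against 118, 118 and 120.3 CPM (6.93-fold lower), and Pmaip1 (NOXA), which promotes death, was 3.83-fold lower. The inhibitor of death Birc3, described above, was lower too. The cyclin-dependent kinase inhibitor gene Cdkn1a (p21) was at 6.64, 9.29 and 10.6 CPM against 60.2, 57.3 and 59.5 CPM (7.12-fold lower), the same direction as the cell division genes it opposes. Of 18 circadian clock genes 9 were lower and 7 higher; Per1, which many acute stimuli induce, was at 305, 293 and 291 CPM against 791, 846 and 890.1 CPM (2.84-fold lower), and Nr1d2 2.14-fold lower, while Npas2 was the largest rise of the list. The labels give no time of day for any sample.

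**Figure D5:**
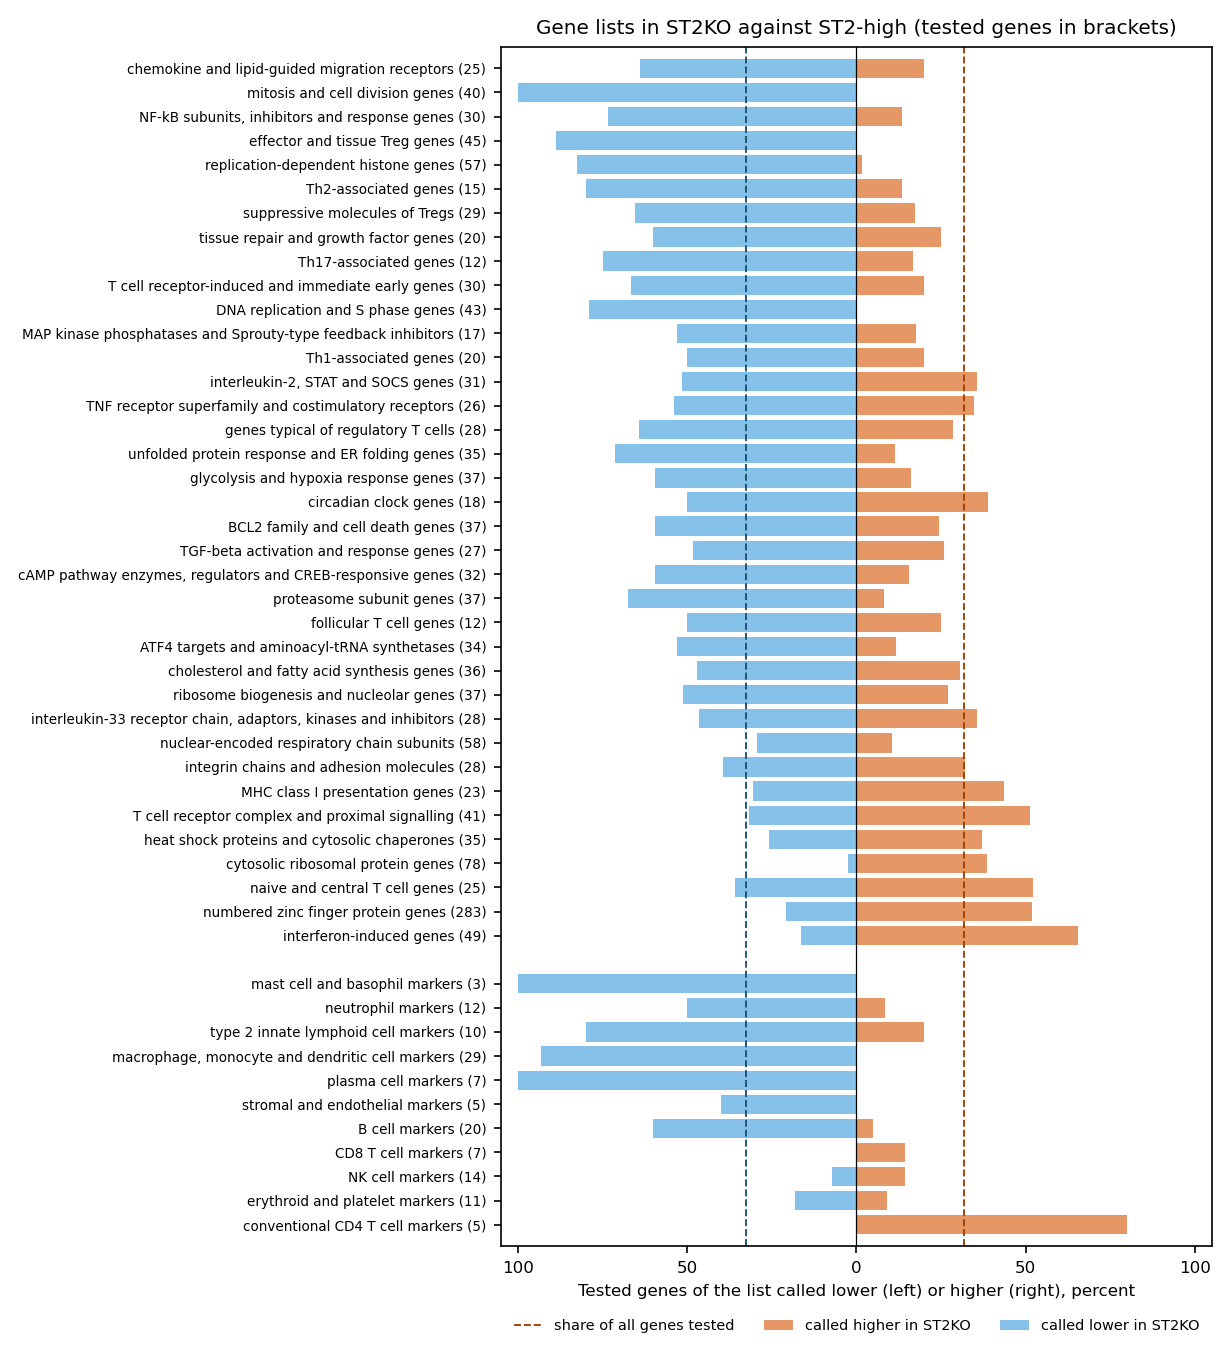
For each gene list (y axis, tested genes in brackets), the bar to the left is the percent of its tested genes called lower in ST2KO than in ST2-high and the bar to the right the percent called higher; dashed lines mark the shares of all tested genes, 32.6% lower and 31.9% higher. Markers of other cell types form the lower block. Mitosis genes reach 100% on the left, and interferon-induced genes the longest bar on the right among the upper block.

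Marker genes of other spleen cells had counts in all libraries, and many differed between the groups. Whether these counts came from such cells or from the sorted Tregs was not tested. Beside the myeloid and dendritic list, 12 of 20 B cell markers were lower and 1 higher, summing to between 324.8 and 454.1 CPM in ST2KO and between 545.8 and 668.0 CPM in ST2-high. The macrophage gene Mpeg1 was at 9.66, 6.02 and 6.95 CPM against 27.9, 32.97 and 28.01 CPM and the monocyte gene Cd14 at 0.673, 0.467 and 0.327 against 2.998, 4.40 and 5.14 CPM. All 7 plasma cell markers were lower, but Xbp1, Prdm1 and Irf4 of that list are also transcribed in Tregs. Of 12 neutrophil markers 6 were lower and 1 higher (3 lower without ST2KO replicate 1), and their sum was between 11.98 and 13.6 CPM in ST2KO and between 27.01 and 37.96 CPM in ST2-high. The 3 tested mast cell and basophil markers were lower. Type 2 innate lymphoid cells also carry ST2, and of their 10 tested markers 8 were lower and 2 higher, and Rora, Klrg1, Gata3 and Id2 of that list are transcribed in Tregs. Markers of NK cells (1 of 14 lower, 2 higher), CD8 T cells (0 of 7 lower, 1 higher) and red cells and platelets (2 of 11 lower, 1 higher) were mostly not called, and their counts changed direction under some alternatives (red cells and platelets 1 lower and 4 higher without ST2KO replicate 2, NK cells 2 lower and 1 higher without ST2KO replicate 1). Of 5 stromal and endothelial markers 2 were lower. Among conventional CD4 T cell markers 4 of 5 were higher, with a sum between 480.9 and 518.8 CPM in ST2KO and between 413.2 and 452.6 CPM in ST2-high. Of these, Cd40lg, the ligand for CD40, was at 33.7, 33.4 and 33.5 CPM against 16.7, 20.1 and 18.6 CPM, and Ifng, the interferon-gamma gene, at 8.96, 8.30 and 8.18 against 3.87, 5.56 and 3.23 CPM. The share of these cells in the levels of genes they share with Tregs, such as Cd83, Rel or Irg1, was not tested.

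Set beside ST2-low, some of the lists are described here by their medians, without a test between lists. For mitosis genes the median log2 fold change was -1.15 for ST2KO minus ST2-high, 0.09 for ST2KO minus ST2-low and 1.22 for ST2-high minus ST2-low. Effector Treg genes gave -0.98, 0.02 and 1.17 in the same order. For NF-kB genes the values were -1.04, -0.52 and 0.42, and for immediate early genes -0.67, -0.47 and 0.04. Unfolded protein response genes gave -0.40, -0.31 and 0.04. Interferon-induced genes gave 0.46, 0.65 and 0.11. DNA replication genes gave -0.62, -0.23 and 0.39, and replication-dependent histone genes -0.97, -0.30 and 0.56. In the median, mitosis and effector genes of ST2KO were thus near ST2-low. NF-kB, immediate early, replication and histone genes lay below both wild-type groups. Since each pair of these 3 comparisons shares a group of libraries, the values are given side by side only.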

How the data were processed

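RNA of 9 mouse spleen Treg samples was sequenced, and the authors deposited raw counts per gene symbol, 1 table per sample, per the file headers. The sources used here do not name the aligner, genome build, strand setting or sorting gate. Each table had 23420 rows; 27 with symbols turned into dates were left out, and 6642 had no count in any library. The ribosomal RNA precursor Rn45s took 12.1% to 16.9% of counts. Genes were filtered with filterByExpr (minimum count 10, total 15), leaving 12219, scaled with TMM and fitted with all 9 samples in edgeR 4.0.16 (R 4.3.3, limma 3.58.1) by the quasi-likelihood test, with Benjamini-Hochberg adjustment at 0.05. SDs are over 3 replicates.

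Named genes were Il1rl1, Foxp3, the 15 largest called rises and falls with at least 10 CPM and groups without overlap, up to 4 called members per list with the smallest adjusted p, all members of the interleukin-33, Treg identity and effector lists, 10 neighbours of Il1rl1 on each side, and 5 genes nearest to no change. Predicted gene models, clone-named genes, pseudogenes, receptor segments, small RNA genes and Rn45s were left out of the rises, the falls and the genes nearest to no change. The members, lists and rules were chosen with earlier results of these data known. Alternatives covered normalization, test (DESeq2 1.42.0, limma-voom), filter, samples, block, fold limit, Rn45s and depth. In simulated data with 200 changed genes among 12219, 38.0% of 1.25-fold, 75.9% of 1.5-fold and 84.1% of 2-fold changes were recovered, and 11 of 138 calls fell on unchanged genes. Far more genes, 7876, were called in the measured data, so these shares may not hold for them. Values of 5 named genes are not reported here.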

Additional observations from a re-analysis of the deposited data

How the results depend on the processing

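No named gene changed the sign of a called difference under any of the 20 alternatives. The balance of higher and lower calls did turn, from 3892 and 3984 to 4582 and 3443 with upper-quartile normalization and to 3971 and 3896 without Rn45s. Counts of a few lists with nearly equal calls turned too, and with the fold limit so did those of T cell receptor signalling (4 higher, 5 lower) and proteasome genes (1 higher, 0 lower). The number of called genes, 7876, lay between 7127 and 7891 when single libraries of the 9 were left out (without ST2KO replicate 1 and without ST2-low replicate 3), with 3328 to 3893 higher and 3696 to 4178 lower. A required fold above 1.5 left 2378 calls, 1027 higher and 1351 lower, and was the only alternative to move these counts by over 1.5 times. Higher genes made up 49.4% of calls, and between 46.0% (without ST2-high replicate 1) and 57.1% (upper-quartile normalization, which moved the median of all genes by 0.08 on the log2 scale) in the alternatives other than the fold limit. Of 290 named genes, 203 stayed as they were, called or not called, under all alternatives in which they were tested. Some weak genes did not pass the filter in every alternative. A call was lost by 80 and gained by 7 under at least 1. The required fold above 1.5 is 1 of these alternatives and drops calls of small differences by design. The cause of the other changes was not tested.

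Same-numbered libraries of the groups did not deviate together over all tested genes (correlations 0.00414, -0.0425 and -0.0167). A shared source that moves few genes would not show in these values, so they do not decide whether the numbers pair the libraries. A fit with the replicate block called 7885 genes. A filter of 5 CPM left 18 of the myeloid and dendritic markers (16 lower), 14 of the repair genes (9 lower, 3 higher) and 2 of the neutrophil markers (1 lower). The shallowest library, ST2KO replicate 3, limits what can be seen of weak genes. With all libraries thinned to its depth 7320 genes were called.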
